A study of Mus musculus with 6 samples.

Results

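A set of 9 genes of the response to foreign RNA and to interferon was followed in whole E17.5 mouse kidneys. They were chosen by name: the RNA sensors Ddx58, Ifih1 and Dhx58, their adaptor Mavs, the interferon signalling genes Stat2, Irf9 and Irf7, and the antiviral effectors Ifit1 and Bst2. Of these 9 genes, 7 had a row in the table of 13203 genes, and Dhx58 and Ifit1 were not analysed here. The mutant group held 3 kidneys labelled Six2Cre Brg1flx/flx, and the control group held 3 kidneys labelled Brg1 flx/flx. Both groups carried floxed Brg1 alleles, and no Cre was named for the controls, so effects of the Cre transgene and of the deletion cannot be told apart. Six2 marks the nephron progenitors of the cap mesenchyme, so the recombinase acts in those cells and their descendants, while stroma, blood cells and ureteric bud in the same organ keep their Brg1 alleles. Brg1, the product of Smarca4, supplies the ATP-driven motor of SWI/SNF remodellers, which move nucleosomes, and the series asks how it acts on proliferation and differentiation of these progenitors. The labels do not say whether the kidneys of a group came from separate animals or litters, so p-values measure the spread between these 6 samples.

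RNA of viral type inside a cell is detected by the RIG-I-like helicases. Ddx58 encodes RIG-I, which recognises the ends of double-stranded RNA, Ifih1 encodes MDA5, which binds long double-stranded RNA, and Dhx58 encodes LGP2, a relative that lacks the signalling domains. RIG-I and MDA5 pass the signal to MAVS on mitochondria, which leads to activation of IRF3 and IRF7 and to synthesis of type I interferon. Interferon then acts through its receptor on a complex that holds STAT2 and IRF9 and binds the interferon-stimulated response element (ISRE) in the promoters of antiviral genes. Several sensors and signalling genes are themselves interferon-stimulated, so the pathway feeds back on its own components. In kidney, tubule cells, stromal cells and resident macrophages can all express genes of this response.

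The ISRE core, written as GAAA, any 2 bases and GAAA on either strand, was searched in RefSeq promoter windows (build GRCm38.p6) that span 250 bases before to 50 bases after each start. A window was at hand for 8 of the 9 genes, all but Dhx58. It held the core in 5 of these 8, namely Ddx58, Ifih1, Stat2, Bst2 and Ifit1. The core was present for 326 of the 9638 genes of the table with a window (3.38%), and in 3.44% of all 32851 windows. The 9 genes were chosen by name from the interferon response, so a share above that of genes of all kinds is no finding about them. Of the 42 measured interferon-stimulated genes with a window, some of the 9 included, 16 held the core (38.1%). Of the 4 measured genes that carry the core, Ddx58, Ifih1 and Stat2 rose in the mutant kidneys and Bst2 did not pass. Irf9 rose without the core in its windows. On the longer list of interferon-stimulated genes, 6 of 16 with the core rose and 0 fell, and of 26 without it 12 rose and 1 fell. Whether the core has a part in any of these rises was not tested. In the following stretches, read 5′ to 3′ on the strand of the gene, capitals mark the core, which reads as TTTC, any 2 bases and TTTC where it lies on the other strand.
Bst2, 250 bases before the start, chr8:71537473-71537722, minus strand: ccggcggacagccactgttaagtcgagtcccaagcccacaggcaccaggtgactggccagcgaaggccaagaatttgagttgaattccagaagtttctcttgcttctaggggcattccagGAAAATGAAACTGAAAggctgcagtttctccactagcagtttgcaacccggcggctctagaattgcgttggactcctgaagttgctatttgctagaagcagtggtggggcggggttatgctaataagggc
Stat2, 250 bases before the start, chr10:128270248-128270497, plus strand: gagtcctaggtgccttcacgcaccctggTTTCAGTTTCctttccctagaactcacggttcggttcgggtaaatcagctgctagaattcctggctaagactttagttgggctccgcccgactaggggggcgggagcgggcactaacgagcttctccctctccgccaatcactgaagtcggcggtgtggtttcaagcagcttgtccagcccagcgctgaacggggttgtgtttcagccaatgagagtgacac
Ddx58, 30 bases around the start, chr4:40239804-40239833, minus strand: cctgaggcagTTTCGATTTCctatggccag
Ifih1, bases 21 to 50 after the start, chr2:62646206-62646235, minus strand: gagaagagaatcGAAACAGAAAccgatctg
Ifit1, bases -104 to -76 from the start, chr19:34640785-34640813, plus strand: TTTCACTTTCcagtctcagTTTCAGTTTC

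In Bst2 the capitals hold 2 overlapping copies of the core, at bases -130 to -121 and -124 to -115 from the start. The match of Stat2 lay farther upstream, at -222 to -213, and Ifit1 had 2 separate copies at -104 to -95 and -85 to -76. In Ddx58 and Ifih1 the match lay within the transcript, at bases 3 to 12 and 33 to 42 after the start. Bst2 alone of the 8 genes also held the palindrome TTC, any 3 bases and GAA, the letters of the gamma-activated site, at -136 to -128, where it overlaps the first ISRE core. That palindrome occurred for 8.25% of the genes of the table with a window. The windows of Mavs, Irf7 and Irf9 held neither set of letters, which says only that they are not in these windows.

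Expression was given as normalised coverage, the summed sequenced bases over each gene scaled by the authors to a common library total, printed here in kb (1000 scaled bases). Before scaling, the mutant libraries mut1 to mut3 held 934 to 1209 Mb over these genes and the control libraries con1 to con3 held 726 to 1126 Mb. Group values are means ± SD with n = 3 kidneys, and log2 fold changes are mutant over control after adding 1 to each value, with a standard error (SE) from limma, and were called at a Benjamini-Hochberg adjusted p under 0.05 over all genes. Smarca4 had 316, 333 and 268 kb in the mutant libraries, against 434, 419 and 371 kb in the control libraries (log2 fold change -0.42, limma adjusted p = 0.00481). Small RNA genes, mostly snoRNA, took 0.306 to 0.642% of mutant and 1.71 to 2.34% of control coverage, and hemoglobin genes 1.58 to 1.68% of mutant and 0.737 to 0.817% of control coverage. With the libraries rescaled without these genes, 4 of the 7 measured genes were still called higher, and of the genes recomputed under the alternatives Pias1 alone lost its call, with an adjusted p of 0.0571. With 3 values a group, exact two-sided permutation cannot give less than p = 0.1. No gene in the table had both group means below 3.40 kb, so a gene low in both groups has no row.

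Of the RNA sensors and their adaptor, both measured sensors rose in the mutant kidneys and the adaptor did not pass the test. Ddx58 (chr4:40203773-40239828, minus strand, mm10) had 28.9, 26.9 and 29.2 kb in the mutant libraries, against 13.9, 10.7 and 11.8 kb in the control libraries. The mutant values lay close together and all of them were above the highest control value. Its mean was 28.3 ± 1.25 kb in mutant and 12.1 ± 1.62 kb in control kidneys, a 2.34-fold difference with a log2 fold change of 1.23 (SE 0.14, 95% interval 0.93 to 1.54, limma adjusted p = 3.99e-05). The exact permutation test gave p = 0.1 for Ddx58. Its log2 fold change lay at the 96.1st percentile of all genes, the highest of the 7 genes.

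Ifih1 (chr2:62595798-62646255, minus strand) had 14.6, 15.3 and 12.1 kb in the mutant libraries and 9.65, 7.14 and 10.5 kb in the control libraries. The groups did not overlap, but mut3 lay only a little above con3. The mean was 14.0 ± 1.66 kb in mutant and 9.11 ± 1.77 kb in control kidneys, 1.54-fold higher in mutant (log2 fold change 0.63, SE 0.19, 95% interval 0.21 to 1.05, limma adjusted p = 0.0181, exact permutation p = 0.1). The call of Ifih1 was lost without con2 (log2 fold change 0.47, adjusted p = 0.0779), without mut1 (0.60, adjusted p = 0.0503) and without mut2 (0.57, adjusted p = 0.0553), within a range of 0.0119 to 0.0779 over its 13 alternatives.

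Mavs (chr2:131234063-131248025, plus strand) had 68.4, 67.5 and 62.8 kb in the mutant libraries, against 63.4, 69.0 and 86.1 kb in the control libraries. The groups overlapped, and the mutant values fell within the range set by con1 and con2, apart from mut3 just below it. Its mean was 66.2 ± 3.03 kb in mutant and 72.9 ± 11.8 kb in control kidneys, with a log2 fold change of -0.13 (SE 0.12, limma adjusted p = 0.399, exact permutation p = 0.4). The 95% interval was -0.38 to 0.13. Without con3 the log2 fold change of Mavs was 1e-04 (adjusted p = 0.9996).

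**Figure D1:**
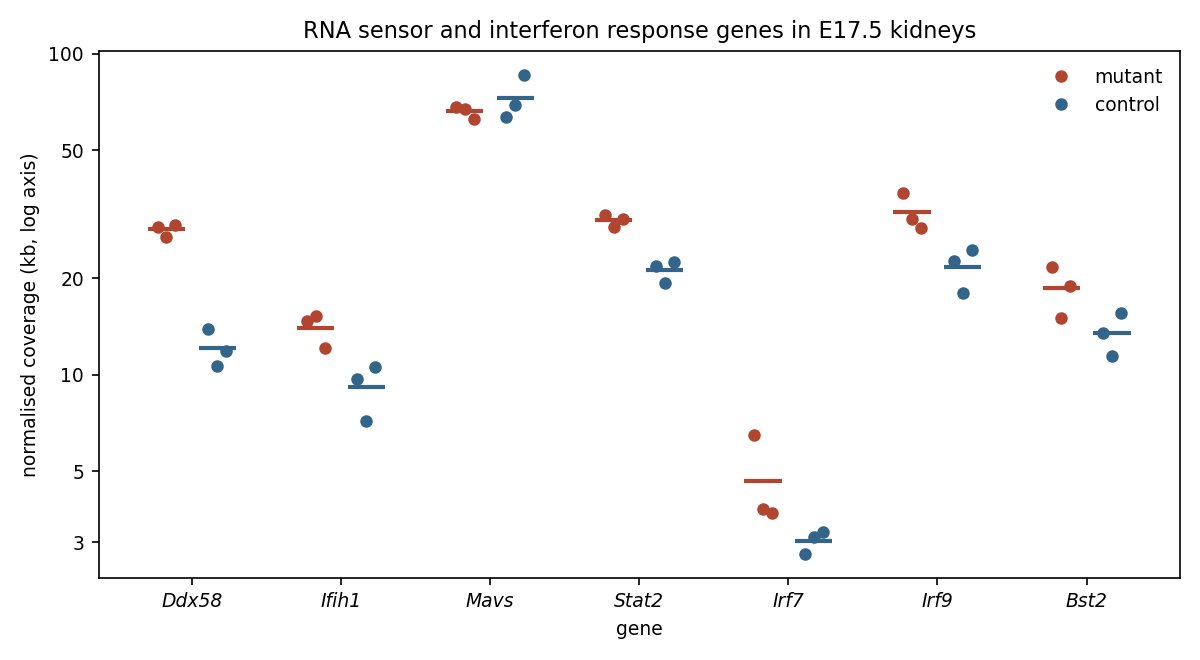
Normalised coverage in kb on a log axis for the 7 measured genes, with 1 point for each library, mutant at the left and control at the right of each gene, and a bar at the group mean. The 3 mutant points of Ddx58, at 26.9 to 29.2 kb, sit above the control points at 10.7 to 13.9 kb, while the points of Mavs overlap.

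The genes that carry the interferon signal to the nucleus were higher in every mutant library than in any control library. Stat2 (chr10:128270559-128292849, plus strand), a subunit of the complex that binds the ISRE, had 31.5, 28.8 and 30.5 kb in the mutant libraries, against 21.7, 19.2 and 22.4 kb in the control libraries. All 3 mutant values were above the control values, with little spread in either group. Its mean was 30.3 ± 1.37 kb in mutant and 21.1 ± 1.65 kb in control kidneys, 1.43-fold higher in mutant (log2 fold change 0.52, SE 0.12, 95% interval 0.26 to 0.78, limma adjusted p = 0.00412, exact permutation p = 0.1).

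Irf9 (chr14:55603571-55610030, plus strand), which gives that complex its DNA contact, had 36.8, 30.6 and 28.7 kb in the mutant libraries and 22.6, 18.0 and 24.5 kb in the control libraries. Library mut1 was the highest, and the groups did not overlap. Its mean was 32.0 ± 4.19 kb in mutant and 21.7 ± 3.33 kb in control kidneys, 1.48-fold higher in mutant (0.57, SE 0.15, 95% interval 0.24 to 0.89, limma adjusted p = 0.00877, exact permutation p = 0.1). In the GENCODE M21 annotation 2.28% of the exon bases of Irf9 are shared with Rnf31 on the same strand.

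Irf7 (chr7:141262706-141266481, minus strand), the factor that amplifies interferon synthesis once it has begun, had 6.47, 3.80 and 3.70 kb in the mutant libraries, against 2.76, 3.12 and 3.22 kb in the control libraries. One mutant library, mut1, was high, and the other two lay only slightly above the control values, so the groups did not overlap. Its mean was 4.66 ± 1.57 kb in mutant and 3.03 ± 0.245 kb in control kidneys, and it did not pass (log2 fold change 0.57, SE 0.31, 95% interval -0.11 to 1.25, limma adjusted p = 0.153, exact permutation p = 0.1). Without mut1 the log2 fold change of Irf7 was 0.31 (adjusted p = 0.459), within a range of 0.0776 to 0.459 over its alternatives. Before scaling these values rest on 6194, 4703 and 4248 sequenced bases in mutant and 2049, 2362 and 3718 in control, the fewest of the 7 genes. The control mean of Irf7 lay below the level the table holds, so the gene has a row only through its mutant mean.

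Of the antiviral effectors only Bst2 was measured. Bst2 (chr8:71534255-71537456, minus strand) encodes tetherin, a membrane protein that holds budding virus particles on the cell surface, and is also a surface marker of plasmacytoid dendritic cells. It had 21.7, 15.0 and 19.0 kb in the mutant libraries, against 13.5, 11.4 and 15.5 kb in the control libraries. The groups overlapped, because mut2 lay just below con3. Its mean was 18.6 ± 3.32 kb in mutant and 13.5 ± 2.06 kb in control kidneys, and it did not pass (log2 fold change 0.46, SE 0.18, 95% interval 0.07 to 0.84, limma adjusted p = 0.0520, exact permutation p = 0.2). Bst2 passed without con3 (0.57, adjusted p = 0.0385) and without mut2 (0.60, adjusted p = 0.0178), within a range of 0.00520 to 0.187 over its alternatives. In the authors' deposited table Bst2 has a ratio of 1.38, a p-value of 0.0876 and a q-value of 0.0490, so that q-value lies below 0.05 where the p-value does not.

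**Figure D2:**
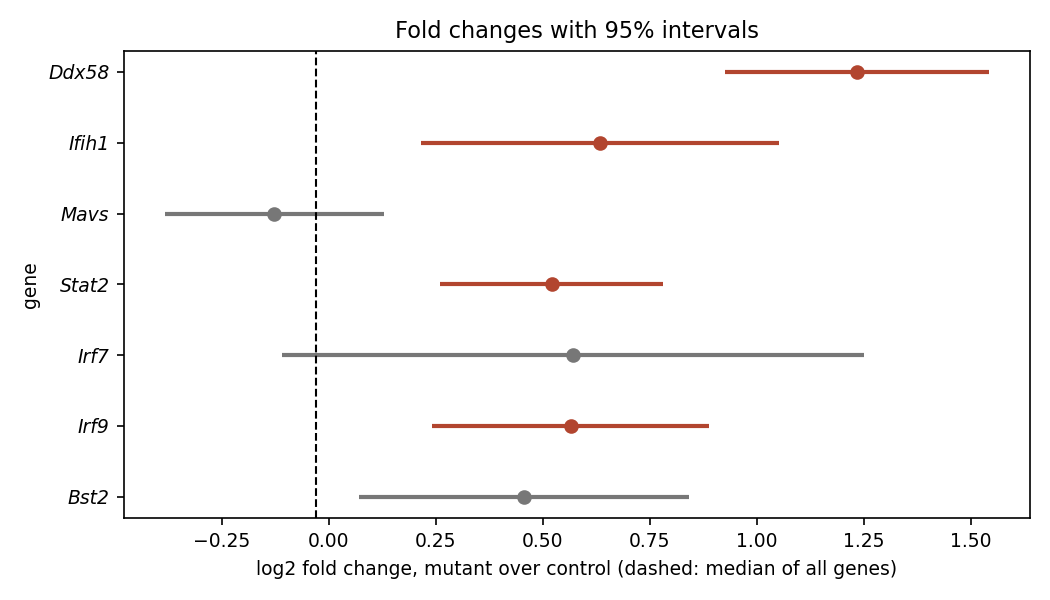
Log2 fold change of each measured gene, mutant over control, with its 95% interval from limma. Red marks genes past the adjusted p threshold and grey those that did not pass, and the dashed line is the median of all genes at -0.03. Ddx58 stands at 1.23, and the intervals of Mavs and Irf7 cross 0.

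Counted together, 4 of the 7 measured genes rose (Ddx58, Ifih1, Stat2 and Irf9), none fell, and 3 did not pass. Over all genes 21.5% were called higher and 24.6% lower in the mutant kidneys, together 46.1%. All 3 mutant values were above all 3 control values for 5 of the 7 genes, against 26.5% of all genes, and below them for none of the 7, against 29.8% of all genes. The median log2 fold change of the 7 was 0.57, against -0.03 over all genes. One of the 7, Irf7, entered the table only through its mutant mean, and the 2 genes without a row are not part of these counts, so the counts describe the measured genes and not the pathway. The number that rose was 3 without con2 or mut1 and 5 without con3. Because the kidneys were measured whole, more cells of a type and more RNA per cell cannot be told apart in any of these differences.

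Per base of exon, the order of the genes was similar in both groups. Coverage divided by the exon length in GENCODE M21 gives a mean scaled depth. Bst2 had a depth of 20.5 ± 3.68 in mutant and 14.9 ± 2.28 in control kidneys, and Mavs had 19.8 ± 0.906 in mutant and 21.8 ± 3.54 in control. The ranges of Bst2 and Mavs overlapped in mutant kidneys and were separate in control kidneys, where Mavs was higher. Irf9 followed at 5.95 ± 0.778 in mutant and 4.03 ± 0.619 in control, and Stat2 at 5.11 ± 0.232 in mutant and 3.56 ± 0.279 in control. The ranges of Irf9 and Stat2 were next to each other in mutant without overlap, and overlapped in control. Ddx58 had a depth of 4.02 ± 0.178 in mutant and 1.72 ± 0.230 in control, and Ifih1 1.72 ± 0.204 in mutant and 1.12 ± 0.217 in control. The depth of Irf7 was the lowest in both groups, at 1.23 ± 0.417 in mutant, where it overlapped Ifih1, and 0.803 ± 0.0648 in control, where it did not. All other neighbours in the order had separate ranges. Of the 7 genes 6 lay below the median coverage of all genes, Mavs being the exception.

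Some libraries stood high or low for most of these genes. Library mut1 was the highest of the mutant libraries for 5 of the 7 genes (Mavs, Stat2, Irf7, Irf9 and Bst2), and for 36.4% of all genes, while the lowest place fell to mut2 for 3 genes and to mut3 for 4. In the control group con3 was the highest for 6 of the 7 genes, against 39.1% of all genes, and con2 was the lowest for 5 of 7, against 32.0% of all genes. The most similar profiles over the 6 libraries were found by Pearson correlation, given without a p because most of the likeness comes from the group difference. For Ddx58 they were Crabp1 (r = 0.9997), a retinoic acid binding protein of kidney stroma, Hic1 (r = 0.999) and Fmo5 (r = 0.999), and 852 genes had r of at least 0.95. Those of Irf7 were Prkcd (r = 0.994), Kifc2 (r = 0.994) and Ngfrap1 (r = 0.993), and 79 genes had r of at least 0.95.

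Of 16 measured cofactors and regulators of RNA sensing 3 rose, 3 fell and 10 did not pass, with a median of -0.02. The shares of 18.8% higher and 18.8% lower were below those of all genes (21.5% higher and 24.6% lower). Nlrx1, a mitochondrial protein reported to restrain MAVS, rose most, with 30.2, 21.3 and 24.2 kb in the mutant libraries, against 9.35, 12.7 and 8.70 kb in the control libraries (log2 fold change 1.30, SE 0.18, limma adjusted p = 1.87e-04). Zyx (0.42), which encodes the cytoskeletal protein zyxin, and Zcchc3 (0.39), an RNA-binding cofactor of the sensors, rose too. The falls were in the RNA helicase genes Ddx3x (-0.46) and Dhx9 (-0.45) and in the phosphatase gene Ppp1cc (-0.38). The call of Ddx3x was lost without con1 (-0.37, adjusted p = 0.0696). Trim25, the ubiquitin ligase that acts on RIG-I, did not pass (0.14, limma adjusted p = 0.288).

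Genes that carry the signal from MAVS to the nucleus showed 6 rises, 1 fall and 14 that did not pass, of 21 measured, with a median of 0.10. The share that rose, 28.6%, was not far from the 21.5% of all genes, and the share that fell, 4.76%, was below their 24.6%. Rela, the transactivating subunit of NF-kappaB, rose with 51.0, 43.9 and 46.2 kb in the mutant libraries, against 26.6, 27.3 and 27.7 kb in the control libraries (log2 fold change 0.79, SE 0.11, limma adjusted p = 1.31e-04). Tbkbp1 (0.71), an adaptor of the kinase TBK1, the kinase gene Ikbke (0.67) and the NF-kappaB inhibitor gene Nfkbia (0.58) rose as well. Chuk, which encodes the kinase IKK-alpha, fell with 24.8, 29.6 and 27.4 kb in the mutant libraries, against 52.3, 48.7 and 46.4 kb in the control libraries (-0.85, adjusted p = 1.04e-04). Tbk1 (log2 fold change -0.04, limma adjusted p = 0.809) and Irf3 (0.08, adjusted p = 0.598), the kinase and the transcription factor directly downstream of MAVS, did not pass. Without mut2 the number of these genes that fell was 2.

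The list of other sensors of nucleic acid held endosomal and DNA sensors, and also adaptors and a transport protein of toll-like receptors. Of 10 measured genes on it 4 rose (40%), 1 fell (10%) and 5 did not pass, with a median of 0.23. Over all genes 21.5% were called higher and 24.6% lower. Tlr7 was the only sensor among the 4 that rose. Tlr7, an endosomal receptor for single-stranded RNA, had 3.86, 2.86 and 4.99 kb in the mutant libraries, against 1.22, 0.457 and 1.69 kb in the control libraries (log2 fold change 1.96, SE 0.53, limma adjusted p = 0.0109). Unc93b1, its transport protein, rose 1.68-fold (0.73, adjusted p = 0.00548). The toll-like receptor adaptors Myd88 (0.39) and Ticam1 (0.33) rose, and Aim2, a cytosolic DNA sensor, fell (-1.27). The rows of Tlr7 and Aim2 exist only through the group in which each is higher. Without mut3 the call of Tlr7 was lost (1.76, adjusted p = 0.0547), and that of Myd88 was lost without con1 (0.33, adjusted p = 0.108), con3 (0.40, 0.0587), mut1 (0.34, 0.0760) or mut3 (0.34, 0.0916). Ticam1 lost its call without con1 (0.24, adjusted p = 0.126), mut1 (0.30, 0.0566) or mut2 (0.32, 0.0571), and Aim2 without con1 (-1.19, 0.0723), con2 (-1.01, 0.0998), mut1 (-1.09, 0.0552) or mut3 (-1.19, 0.0549). The number of genes on this list that rose was 2 without con1, mut1 or mut3, and the number that fell was 0 without con1, con2, mut1 or mut3.

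Enzymes that edit or degrade the cell's own nucleic acid, and so limit what the sensors meet, were divided. Of 14 measured 2 rose (14.3%), 3 fell (21.4%) and 9 did not pass, with a median of -0.08, against 21.5% higher and 24.6% lower over all genes. Dnase2a, which encodes a lysosomal nuclease, rose 1.75-fold (log2 fold change 0.80, SE 0.20, limma adjusted p = 0.00710). Rnaseh2b (-1.0) and Rnaseh2a (-0.89), subunits of RNase H2, which removes RNA from DNA and also acts in replicating cells, fell, as did Pnpt1 (-0.65), a mitochondrial RNA exonuclease. Adar, which edits double-stranded RNA so that MDA5 ignores it, had 123, 117 and 105 kb in the mutant libraries, against 102, 86.9 and 101 kb in the control libraries. It did not pass (0.25, adjusted p = 0.0543), but passed without mut3 (0.31, adjusted p = 0.0384).

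The receptors and kinases of interferon signalling were more uniform in direction. Of 13 measured 8 rose (61.5%), none fell and 5 did not pass, with a median of 0.30, against 21.5% higher and 24.6% lower over all genes. Stat2 and Irf9 are among them, and without these 6 of 11 rose with a median of 0.25. Both chains of the type I interferon receptor rose. Ifnar2 had 45.8, 42.9 and 43.2 kb in the mutant libraries, against 26.0, 23.5 and 28.3 kb in the control libraries (log2 fold change 0.77, SE 0.11, limma adjusted p = 2.26e-04). Ifnar1 had 273, 284 and 272 kb in the mutant libraries, against 202, 215 and 222 kb in the control libraries (0.38, SE 0.08, adjusted p = 0.00188). Ifnlr1 (0.64), a chain of the receptor for interferon lambda, Ifngr2 (0.35), a chain of the receptor for interferon gamma, the kinase gene Jak2 (0.30) and Stat3 (0.25), a transcription factor of cytokine receptors, rose too. Ifnlr1 lost its call without con3 (0.38, adjusted p = 0.119), mut1 (0.62, 0.0743) or mut3 (0.59, 0.0945), and Ifngr2 without con1 (0.31, 0.0564) or con2 (0.32, 0.0547). Interferon genes themselves, such as Ifnb1, were not analysed here.

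Inhibitors of the pathway and the interferon regulatory factors were measured for fewer genes. Of 9 negative regulators 3 rose (33.3%), 1 fell (11.1%) and 5 did not pass, with a median of 0.14, against 21.5% higher and 24.6% lower over all genes. Socs3, an inhibitor of JAK signalling, rose 1.71-fold (log2 fold change 0.77, SE 0.13, limma adjusted p = 6.14e-04), Trim24 (0.32) and Pias1 (0.23) rose slightly, and the phosphatase gene Ptpn2 fell (-0.49). The number that rose was 1 without con2, con3 or mut2. Trim24 lost its call without con2 (0.34, adjusted p = 0.0501), con3 (0.24, 0.0830) or mut2 (0.27, 0.0660), and Pias1 lost it without any 1 of the 6 libraries (adjusted p = 0.0727 to 0.163). Of 8 interferon regulatory factors 3 rose (37.5%) and 5 did not pass. Irf1, a target of interferon gamma, had 27.7, 24.6 and 21.8 kb in the mutant libraries, against 12.0, 11.4 and 14.8 kb in the control libraries (0.96, SE 0.15, adjusted p = 4.40e-04). Irf9 was also among those that rose.

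Among 50 measured interferon-stimulated genes 21 rose (42.0%), 1 fell (2%) and 28 did not pass, with a median of 0.29. The shares over all genes were 21.5% higher and 24.6% lower. Of these 21, 4 are Ddx58, Ifih1, Stat2 and Irf9, and without the 6 described genes on this list 17 of 44 rose with a median of 0.24. A further 36 listed genes had no row, Isg15, Mx1 and Oas1a among them. Ube2l6, the enzyme that carries the ubiquitin-like ISG15 onto its targets, had 47.0, 45.7 and 33.6 kb in the mutant libraries, against 17.2, 14.3 and 17.53 kb in the control libraries (log2 fold change 1.35, SE 0.15, limma adjusted p = 3.60e-05). Uba7, the activating enzyme of the same pathway, rose 1.98-fold (0.99, adjusted p = 3.32e-04). Ifitm3 (1.93), which blocks virus entry, and Oasl1 (1.70), a regulator of Irf7 translation in mouse, rose, with control means below 3.40 kb. Like Irf7, they have a row only through their mutant means, and Ifit3 has one only through its control mean. Without these genes 19 of 46 rose and 1 fell. Reads of Ifitm3 could be split with its near-identical family members. Of these, Ifitm1 (0.43, limma adjusted p = 0.112) and Ifitm2 (0.08, adjusted p = 0.612) did not pass. Ifi30, a lysosomal thiol reductase, fell (-0.41, adjusted p = 0.0104), and the number on the list that fell was 2 without con3 or mut2 and 3 without mut1.

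The nearest measured relatives of Ifit1 were Ifit2, with 35.3, 34.1 and 32.8 kb in the mutant libraries and 32.8, 35.9 and 35.3 kb in the control libraries, and Ifit3, with 3.23, 2.17 and 0.821 kb in the mutant libraries and 2.95, 5.03 and 4.09 kb in the control libraries. Neither passed. Ifit2 stood at a log2 fold change of -0.02 (95% interval -0.25 to 0.20, limma adjusted p = 0.862) and Ifit3 at -1.13 (95% interval -2.21 to -0.06, adjusted p = 0.0789). The mutant mean of Ifit3 lay below 3.40 kb, so it has a row only through its control mean, and without mut1 its log2 fold change was -1.56 (adjusted p = 0.0261). Rsad2, which encodes the antiviral enzyme viperin, rose with 68.5, 74.5 and 71.4 kb in the mutant libraries, against 47.0, 44.0 and 53.8 kb in the control libraries (0.57, SE 0.10, adjusted p = 9.21e-04). Of the 42 measured interferon-stimulated genes with a promoter window 16 held the ISRE core (38.1%). Among those 16 genes 6 rose and none fell, with a median of 0.13, and of the 26 without the core 12 rose and 1 fell, with a median of 0.29.

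Genes typical of interferon gamma, the guanylate-binding proteins and antigen presentation, were listed separately. Of 26 measured 13 rose (50%), 1 fell (3.85%) and 12 did not pass, with a median of 0.61, against 21.5% higher and 24.6% lower over all genes. Gbp2, Gbp3 and H2-Aa have a row only through their mutant means, and without these 10 of 23 rose. Gbp2 had 7.13, 8.09 and 10.1 kb in the mutant libraries, against 1.50, 0.917 and 2.31 kb in the control libraries (log2 fold change 2.50, SE 0.37, limma adjusted p = 2.29e-04). Gbp9 (1.76) and Iigp1 (1.73), GTPases of cell-autonomous defence, and H2-Aa (1.90), an MHC class II chain of antigen-presenting cells, rose too. The other class II chains measured did not pass, H2-Ab1 at 13.3 kb in mutant and 16.2 kb in control kidneys (-0.29, limma adjusted p = 0.204), and H2-Eb1 at 6.49 kb in mutant and 4.21 kb in control kidneys (0.67, adjusted p = 0.145). Cd74, which encodes the invariant chain of MHC class II, rose (1.70, limma adjusted p = 1.53e-04). Its values were 20.6, 12.7 and 14.9 kb in the mutant libraries, against 4.32, 4.23 and 6.23 kb in the control libraries. B2m, the light chain of MHC class I on nearly all cells, had 39.8, 36.5 and 33.6 kb in the mutant libraries, against 18.8, 25.1 and 18.6 kb in the control libraries (0.83, SE 0.14, adjusted p = 6.95e-04). The chaperone gene Pdia3 fell (-0.37), a call lost without con1 (-0.30, adjusted p = 0.0810), con2 (-0.34, 0.0691), mut1 (-0.29, 0.0546) or mut3 (-0.35, 0.0537). The number on this list that fell was 0 without con1, con2 or mut3 and 2 without con3. GBP and MHC genes have near-identical relatives among which reads could be split.

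**Figure D3:**
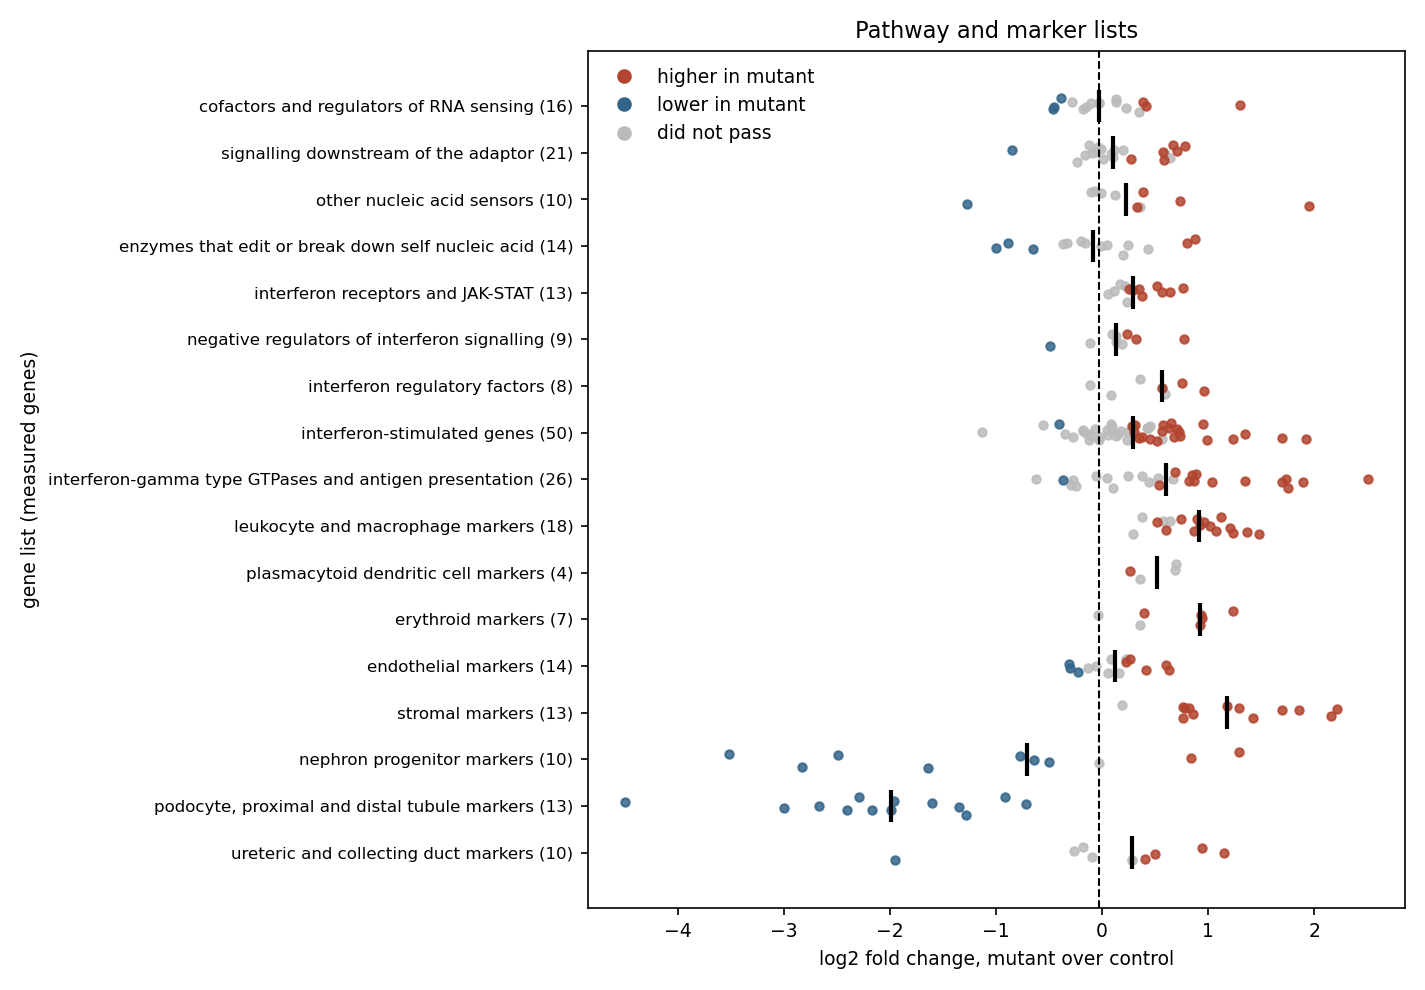
Log2 fold change of each measured gene, mutant over control, by gene list, with the number of measured genes in brackets. Red points were called higher in mutant, blue points lower, and grey points did not pass; black bars are list medians and the dashed line is the median of all genes. The list of interferon receptors and JAK-STAT has no blue point, and podocyte and tubule markers have only blue points.

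Most leukocyte, erythroid and stromal markers rose in the mutant kidneys. Of 18 leukocyte and macrophage markers 14 rose and 4 did not pass, with a median of 0.91. Their summed coverage was 372 to 432 kb in the mutant and 200 to 229 kb in the control libraries, 1.89-fold higher in mutant, and none of the 18 was at 0 in any library, while 5 listed markers had no row. The markers with most coverage were Csf1r (1.20), Mrc1 (1.02) and C1qb (1.12). Of 4 measured markers of plasmacytoid dendritic cells, Tcf4 rose (0.26; without con2, 0.26 and adjusted p = 0.0581), and Irf8 (0.35), Klk1 (0.70) and Runx2 (0.69) did not pass, all 4 being genes that other kidney cells can express. Klk1 passed without con3 (1.06, adjusted p = 0.00746), the number that rose was 0 without con2 and 2 without con3 or mut2, and the more specific Siglech was not analysed here. Of 13 stromal markers 12 rose, with Col3a1 (0.76), Col1a2 (0.78) and Fat4 (2.16) as the most covered, and their sum was 2.03-fold higher in mutant. Of 7 erythroid markers 5 rose, and the sum of the 7 was 2.05-fold higher in mutant. The most covered were Hbb-b2 (0.94), Hba-a2 (1.24) and Hba-a1 (0.94), and the sequences of Hba-a1 and Hba-a2 are nearly alike. The part of these cell types in the differences of the interferon genes was not tested.

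Markers of the nephron went the other way. All 13 podocyte and tubule markers fell, with Lrp2 (-2.29), Podxl (-1.34) and Slc34a1 (-1.96) as the most covered, and their sum in mutant was 0.271 of that in control. Of 10 nephron progenitor markers 7 fell and 2 rose, with Sall1 (-0.77), Crym (0.84) and Eya1 (-0.50) as the most covered. The call of Eya1 was lost without con2 (-0.34, adjusted p = 0.140) or mut3 (-0.33, 0.124). Endothelial markers moved less, with 5 of 14 higher and 3 lower and a summed coverage 1.11-fold higher in mutant. Cdh5 (0.41) and Pecam1 (0.23) rose, a call that Pecam1 lost without con1 (adjusted p = 0.110), con2 (0.115), mut2 (0.0505) or mut3 (0.0742), and Kdr (0.22) did not pass but passed without mut1 (0.31, 0.00852). Of the 14 markers 3 rose without con1 or con2, while 0 fell without con1 and 1 without con3 or mut3. In the ureteric lineage 4 of 10 markers rose, and Aqp2, the water channel of the collecting duct, fell (-1.95), at 14.0 kb in mutant and 52.3 kb in control kidneys. The most covered were Krt18 (0.94) and Wnt7b (1.15), which rose, and Krt8 (0.28), which did not pass. All listed markers of stroma, nephron progenitors, podocytes and tubules, and ureteric lineage had a row, so the defining cells of the labelled organ were represented.

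**Figure D4:**
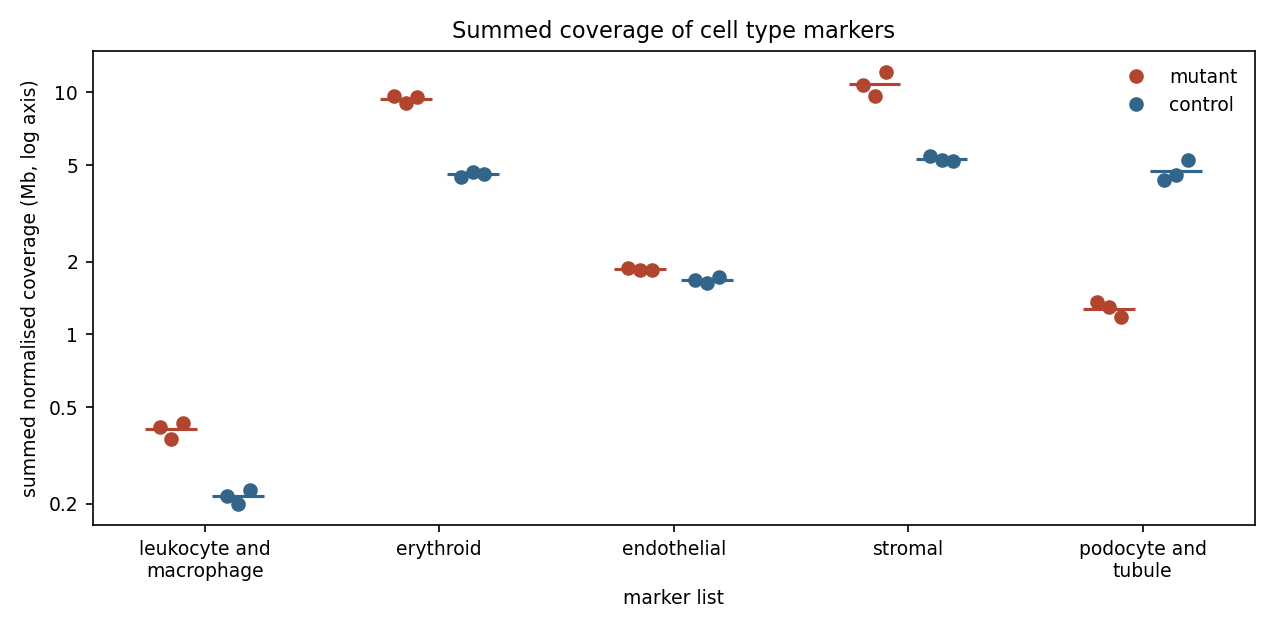
Summed normalised coverage of the measured markers of 5 cell types in Mb (1000 kb) on a log axis, with 1 point for each library, mutant left of control, and a bar at the group mean. Leukocyte, erythroid and stromal sums lie higher in every mutant library than in any control library, and the podocyte and tubule sum lies lower.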

How the data were processed

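Total RNA of whole kidneys was depleted of ribosomal RNA and made into barcoded Ion Total RNA-seq libraries, per the labels' protocols. The submitters' processing notes name the build mm10 and bedtools. Aligner, annotation and strand use are not given in the sources used here. For each library the authors deposited a coverage signal per gene, scaled to a common total of 976 Mb and not divided by gene length, with a ratio of group means and p-values and q-values of their own comparison. Low signal values were whole multiples of a step in each library (100% within 0.02 of a step), so the signal counts bases, and the number of reads is unknown. Columns name only the group and a running number, so they were assigned to groups and not paired.

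The 13203 genes were fitted without a filter, as log2 of the signal with a pseudocount of 1, using moderated two-sided tests with a mean-variance trend (limma 3.58.1, R 4.3.3). The adjustment over all of them followed Benjamini and Hochberg. Named genes were the 9 chosen genes, Smarca4, up to 4 called genes per direction and pathway list with the largest change, and the 3 most covered genes of each marker list. The profiles most like Irf7 and Ddx58 were also named, a step that could not be run for Ifit1. Trim25, Tbk1, Irf3, Jak2, Stat3, Runx2, Aqp2, Gbp3, H2-Ab1, H2-Eb1, Cd74, Adar, Ifit2, Ifit3, Rsad2 and B2m, and the markers and listed genes named as having no row, were chosen after their values were seen. Some genes that the rule names are not reported here. The genes and lists were chosen with earlier results of these data known. Coordinates and exon lengths are from GENCODE M21 (mm10), in which 12436 symbols matched 1 gene. Alternatives were another pseudocount, a coverage filter, 3 scalings, 2 variance models, each library left out, and, chosen after seeing the data, removal of length and GC trends.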

Additional observations from a re-analysis of the deposited data

How the results depend on the processing

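No paired analysis was run, because the columns name only the group and a running number and no pairing is given. Over the alternatives run on them, Ddx58, Stat2 and Irf9 kept their direction and their call. With 1 library left out, the log2 fold change of Ifih1 ranged from 0.47 to 0.75, of Bst2 from 0.34 to 0.60, of Mavs from -0.22 to 1e-04 (positive without con3), of Ifit2 from -0.065 to 0.0022, of Irf3 from -0.0071 to 0.14 and of Tbk1 from -0.10 to 0.004. Bst2 passed with median-ratio scaling (0.48), quantile normalization (0.51), array weights (0.48) and with length and GC trends removed (0.58), the last chosen after seeing the data. Ifit2 and Tbk1, neither called, turned to 0.063 and 0.059 with quantile normalization and to 0.10 and 0.051 with length and GC trends removed. The cause was not tested.

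The filter at median coverage keeps only Mavs of the 7 genes, so 0 rose, and by construction it lowers the other counts. With it 1547 of all genes rose and 1729 fell. The number higher was then 3 for signalling after MAVS, 1 for other sensors, 1 for nucleic acid enzymes, 5 for receptors and JAK-STAT, 1 for interferon regulatory factors, 7 for interferon-stimulated genes, 2 for interferon gamma genes, 2 for leukocyte and 1 for progenitor markers. The number lower was 0 for other sensors, enzymes, negative regulators and ureteric markers, and 2 for progenitor markers. Quantile normalization gave 2 lower interferon gamma genes. Without a variance trend 1 negative regulator rose, 0 interferon gamma genes fell, and 3 endothelial markers rose and 1 fell. Array weights gave 2 lower genes in signalling, 2 among interferon-stimulated and 3 among interferon gamma genes, and 2 higher plasmacytoid markers. With length and GC trends removed 2 signalling genes, 5 enzymes, 0 negative regulators and 0 interferon-stimulated genes fell, 3 erythroid and 3 endothelial markers rose and 1 endothelial marker fell.

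With 1 library left out, the number higher ranged from 3 to 5 for the 7 genes, 2 to 4 for other sensors, 1 to 2 for negative regulators, 0 to 2 for plasmacytoid and 3 to 5 for endothelial markers. The number lower ranged from 1 to 2 for signalling, 0 to 1 for other sensors, 1 to 3 for interferon-stimulated genes, 0 to 2 for interferon gamma genes and 0 to 3 for endothelial markers. Read depth is unknown, so no counting interval can be given. Irf7, Tlr7, Aim2, Oasl1, Ifitm3, Ifit3, Gbp2, Gbp3, H2-Aa and Itgam each have 1 group mean below 3.40 kb.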
